A study of Homo sapiens with 6 samples.

Results

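The ABC transporter genes were taken as the protein coding rows of the deposited expression table whose symbol is ABCA, ABCB, ABCC, ABCD, ABCE, ABCF or ABCG followed by digits alone, which gave 45 of its 58735 genes. They were compared between 3 libraries of T84 cells with a short hairpin RNA against ACSL4 (shACSL4) and 3 libraries of T84 cells with a control hairpin (shControl). T84 is an established human colorectal cancer cell line, and ACSL4 is the enzyme that joins polyunsaturated fatty acids to coenzyme A. RNA freed of ribosomal RNA was sequenced in all 6 libraries, and no other treatment, time point or cell line entered the comparison. The labels give neither the hairpin sequences nor their number, nor whether the cells were a pool or 1 clone. They also leave unstated whether replicates were grown as separate cultures, and the p-values then reflect a spread that could be technical. A knockout is mentioned in the series description, but the sample titles name hairpins and are followed here.

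ABC transporters bind and hydrolyse ATP on a conserved cassette and use it to move substrates across membranes. Members of the A and G subfamilies mostly carry lipids and sterols. The B and C subfamilies hold exporters of drugs, bile salts and conjugated organic anions, together with several mitochondrial members. Most of the D subfamily brings fatty acyl-CoA into peroxisomes, while the E and F proteins have the cassette without a membrane domain and act on ribosomes and translation. In intestinal epithelium the family is best known for the pumps of the apical membrane, P-glycoprotein (ABCB1), MRP2 (ABCC2) and BCRP (ABCG2), which return drugs and conjugates to the lumen, and for MRP3 (ABCC3) on the basolateral side.

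The targeted gene was checked first. ACSL4 (ENSG00000068366, chromosome X, 109624244 to 109733403, minus strand, GRCh38) had 10.3, 9.12 and 11.1 CPM in shACSL4 libraries, against 75.5, 72.2 and 72.0 CPM in shControl libraries. CPM are counts relative to the library size after TMM scaling (counts-per-million). The groups were far apart, with a log2 fold change of -2.85 (SE 0.10, edgeR quasi-likelihood test with Benjamini-Hochberg adjustment over all genes tested, adjusted p = 3.6e-12). Library totals ran from 14740383 to 17620630 counts, so that 3 counts stood for 0.171 to 0.202 CPM, and mitochondrial genes took 7.30 to 8.43% of counts in shACSL4 libraries and 8.13 to 9.91% in shControl libraries. Of 12 colorectal epithelial marker genes, all were measured, with a summed level of 9037 to 10420 CPM in shACSL4 and 8001 to 9347 CPM in shControl. The 8 fibroblast markers summed to at most 2.68 CPM in shACSL4 and 4.37 CPM in shControl, with PDGFRA and THY1 at 0 in every library. The 5 endothelial markers summed to at most 1.08 CPM in shACSL4 and 1.31 CPM in shControl, with KDR at 0. The 8 immune markers summed to 6.04 to 8.73 CPM in shACSL4 and 18.8 to 30.5 CPM in shControl. LYZ, which epithelial cells also express, made up most of that sum, CD3E was at 0, and PTPRC, the pan-leukocyte marker, averaged 0.142 CPM in shACSL4 and 0.490 CPM in shControl. In bulk RNA, fewer cells of a type and less RNA per cell cannot be told apart.

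A total of 32 of the 45 ABC genes had enough counts to be tested, 10 had reads but too few, and 3 had no read in any library. At an adjusted p under 0.05, 8 members were higher and 8 lower in shACSL4 cells, which is 50% of those tested, while 47.2% of all 15694 genes tested passed the same threshold. By direction, 24% of all genes tested were higher and 23.1% were lower. The family therefore changed about as often as the transcriptome did. The median log2 fold change was 0.03 over the members and 0.01 over all genes, and the median size without sign was 0.36 and 0.35. The CPM values of the groups did not overlap for 19 members tested, or 59.4%, against 55.1% of all genes. The members called with a change beyond 1 log2 unit were ABCA13 and ABCA5, while 11.9% of all genes tested were called with a change of that size. Scaling by library size alone moved the median of all genes to 0.13 and the share of calls that were higher to 65.6%, against 50.9% with TMM, and it called 10 members higher and 6 lower.

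**Figure D1:**
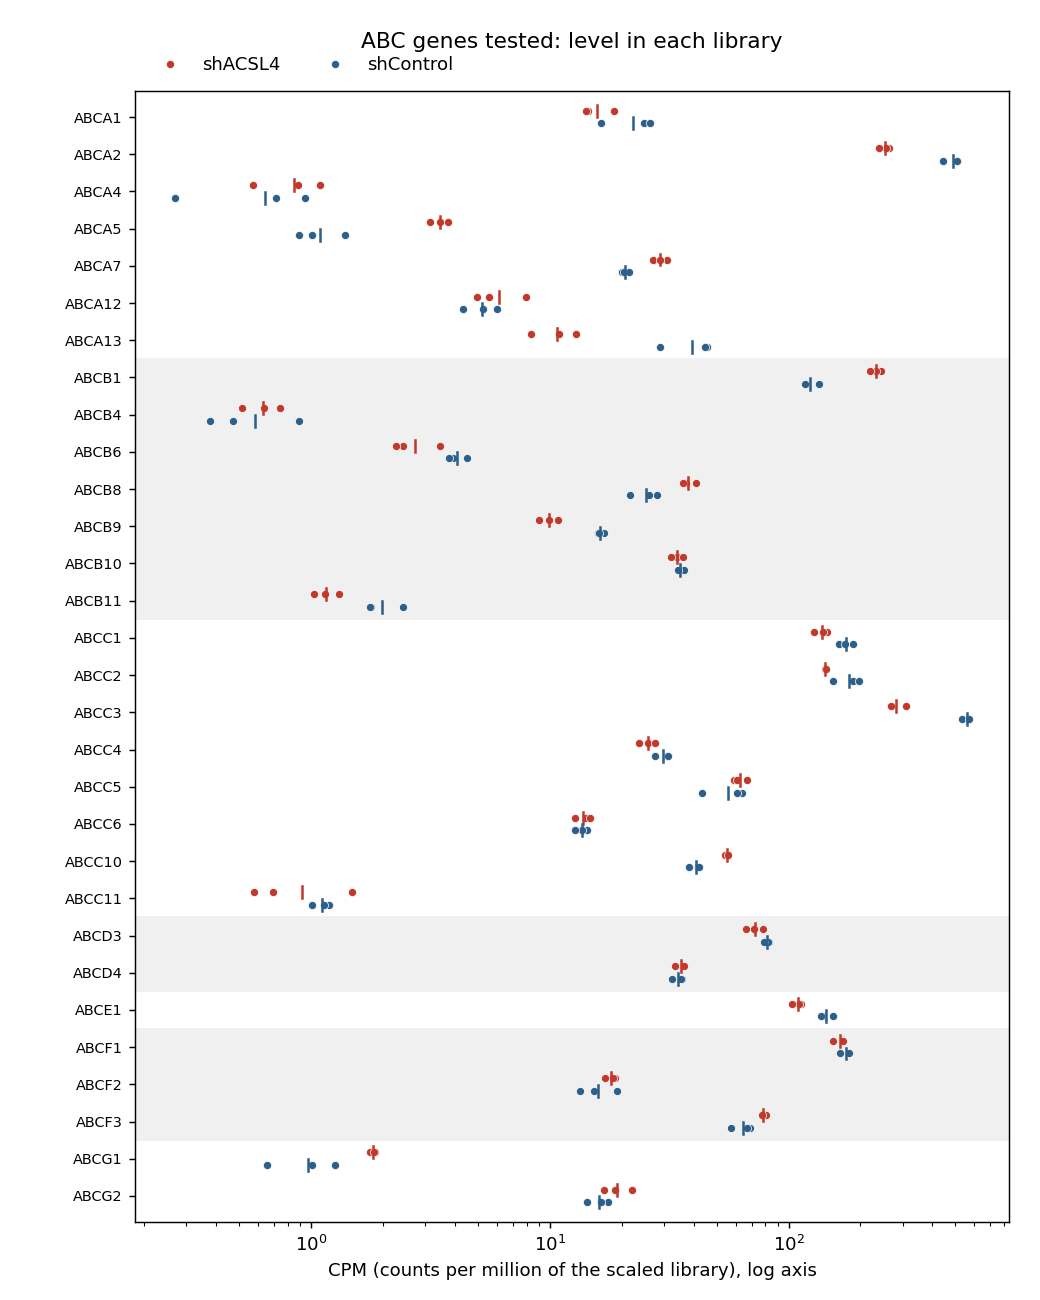
Level of 30 of the 32 ABC genes tested, in CPM on a log axis, grouped by subfamily from ABCA at the top to ABCG at the bottom. Points are single libraries, vertical bars are group means (n = 3), shACSL4 is drawn above shControl in each row. ABCC3, ABCA2 and ABCB1 stand out as abundant genes with separated groups, with shACSL4 lower for ABCC3 and ABCA2 and higher for ABCB1.

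The subfamilies with large summed levels moved in different directions. The ABCC genes together had 722 ± 25 CPM in shACSL4 and 1051 ± 63.1 CPM in shControl (SD, n = 3 each). The ABCA genes summed to 320 ± 14.4 CPM in shACSL4 and 576 ± 53.5 CPM in shControl. The ABCB genes went the other way, with 405 ± 14.6 CPM in shACSL4 and 287 ± 13.2 CPM in shControl. ABCD genes summed to 123 ± 5.95 CPM in shACSL4 and 128 ± 3.97 CPM in shControl, and ABCF genes to 261 ± 11 CPM in shACSL4 and 254 ± 16.4 CPM in shControl. The ABCG genes held little of the total, with 22.1 ± 2.34 CPM in shACSL4 and 18.1 ± 1.90 CPM in shControl. Over all 45 members the sum was 1994, 2005 and 1886 CPM in shACSL4 libraries, against 2544, 2347 and 2482 CPM in shControl libraries. These sums carry no test, and each is dominated by a few genes.

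Per unit of length, measured by the deposited FPKM (fragments per kilobase of gene, scaled to the library), ABCC3, ABCF1 and ABCA2 had the highest means over the 6 libraries, followed by ABCB1, ABCC1, ABCC2 and ABCE1. The order differed between the groups. ABCB1 led the family in shACSL4 cells with 39.4 ± 2.02 FPKM and had 21.1 ± 1.76 FPKM in shControl cells. ABCC3 led in shControl cells, with 29 ± 2.54 FPKM in shACSL4 and 57.5 ± 1.81 FPKM in shControl. ABCB1 thus made up 14.4% of the family's summed FPKM in shACSL4 and 6.64% in shControl, and ABCC3 10.6% in shACSL4 and 18.2% in shControl. The ratio of ABCB1 to ABCC3 FPKM, a measure chosen after the values were seen, was 1.5, 1.24 and 1.35 in shACSL4 libraries, against 0.393, 0.366 and 0.340 in shControl libraries. The 8 genes with the highest mean FPKM held 71.1 to 72.3% of the family's FPKM in shACSL4 and 76.6 to 77.7% in shControl.

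**Figure D2:**
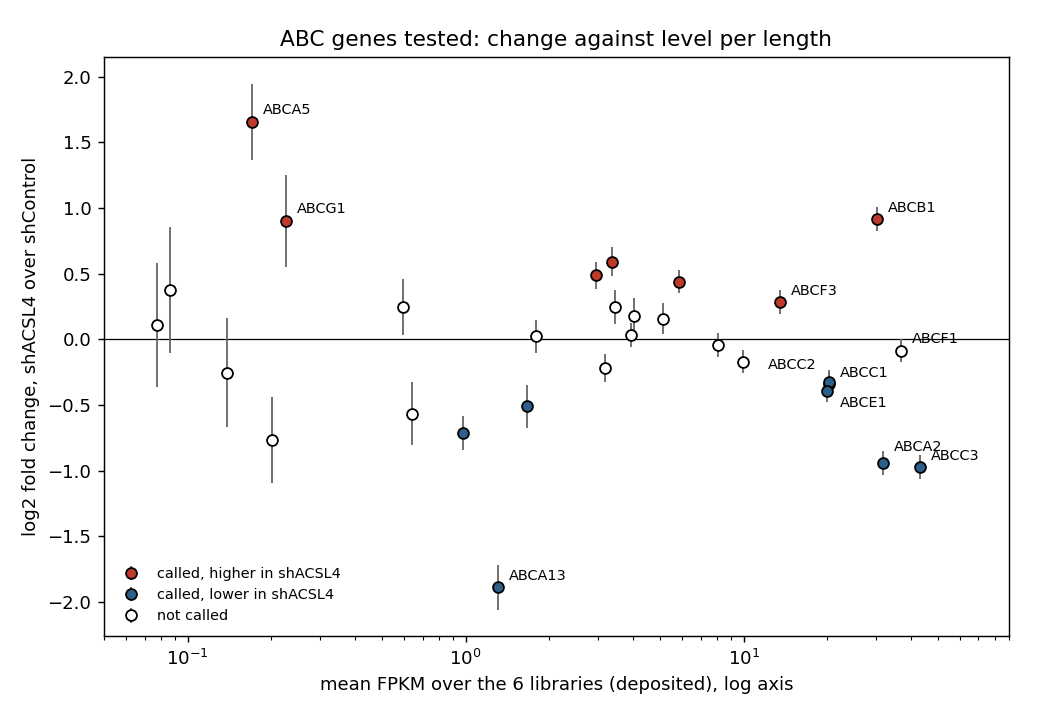
Log2 fold change (shACSL4 over shControl, bars are SE) against mean FPKM over the 6 libraries on a log axis, for 30 of the 32 ABC genes tested. Filled points passed the test. ABCB1 lies far above 0 and ABCC3 and ABCA2 far below it among the abundant genes, while the largest folds, of ABCA13 and ABCA5, belong to genes with a mean of 1.31 and 0.171 FPKM.

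The exporters of drugs and organic anions included ABCB1 and ABCC3, which changed in opposite directions. ABCB1, the multidrug pump P-glycoprotein (chromosome 7, 87503633 to 87713323, minus strand), had 244, 233 and 220 CPM in shACSL4 libraries, against 134, 118 and 117 CPM in shControl libraries. Every shACSL4 library lay above every shControl library, with a 1.89-fold higher level (log2 fold change 0.92, SE 0.09, edgeR adjusted p = 3.9e-07). ABCG2, the drug and urate exporter BCRP, had 22.0, 18.7 and 16.8 CPM in shACSL4 and 17.6, 16.4 and 14.3 CPM in shControl. The ABCG2 groups overlapped, and the log2 fold change of 0.25 (SE 0.13, edgeR adjusted p = 0.13) did not pass the test. ABCB5, a relative of ABCB1, had 2 counts in 1 library of each group.

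ABCC3, the basolateral exporter of glucuronides and bile salts MRP3 (chromosome 17, 50634777 to 50692252, plus strand), had 269, 311 and 269 CPM in shACSL4 libraries, against 566, 533 and 570 CPM in shControl libraries. The groups were well separated, and ABCC3 fell to 0.509 times the shControl level (log2 fold change -0.98, SE 0.09, edgeR adjusted p = 2.6e-07). ABCC1, the broadly expressed glutathione conjugate exporter MRP1, had 145, 139 and 128 CPM in shACSL4, against 186, 163 and 173 CPM in shControl. Its groups did not overlap and the fall was smaller, at -0.34 on the log2 scale (SE 0.09, edgeR adjusted p = 0.0043). ABCC2, the apical conjugate exporter MRP2, had 142, 143 and 143 CPM in shACSL4, against 185, 154 and 197 CPM in shControl. The shACSL4 libraries were nearly equal and lay below a wider shControl group (log2 fold change -0.33, SE 0.09, edgeR adjusted p = 0.0094). With scaling by library size alone ABCC2 stood at -0.21 with an edgeR adjusted p of 0.0987, ABCC1 at -0.22 with an adjusted p of 0.038, and over all 17 alternatives the adjusted p of ABCC2 ran from 5.5e-05 to 0.231.

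ABCC10, a drug exporter also called MRP7, changed in the other direction. It had 55.6, 54.3 and 55.8 CPM in shACSL4, against 38.4, 41.9 and 42.0 CPM in shControl. Both groups were tight and did not overlap (log2 fold change 0.44, SE 0.09, edgeR adjusted p = 0.00051). ABCC4, an exporter of cyclic nucleotides and prostaglandins, had 25.8, 27.6 and 23.5 CPM in shACSL4 and 30.8, 27.6 and 31.1 CPM in shControl, and its log2 fold change of -0.22 did not pass (edgeR adjusted p = 0.097). It passed without shControl replicate 2, at -0.27 and an edgeR adjusted p of 0.0453, and its adjusted p ran up to 0.612 over the alternatives. ABCC5, another exporter of cyclic nucleotides, was at 0.16 (edgeR adjusted p = 0.30). ABCC11, the exporter known from earwax type, was at -0.26 (edgeR adjusted p = 0.64). It shares 293 exonic bases with LONP2 on the opposite strand, a gene with a mean of 1824 counts where ABCC11 had 16.5, so its reads cannot be assigned with certainty. ABCC12 had no read.

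ABCC6, whose loss causes pseudoxanthoma elasticum, averaged 13.8 CPM in shACSL4 and 13.6 CPM in shControl (log2 fold change 0.02, edgeR adjusted p = 0.90). It has near-identical pseudogenes among which reads can be split. ABCC6P1 had 7.95, 5.59 and 6.83 CPM in shACSL4, against 9.52, 11.2 and 10.9 CPM in shControl (log2 fold change -0.64, SE 0.16, edgeR adjusted p = 0.0041), and ABCC6P2 was at -0.55 (edgeR adjusted p = 0.23). How the counting divided reads among the 3 loci is not stated, so the values of ABCC6 are uncertain. ABCC8 and ABCC9 are the sulfonylurea receptors of ATP-sensitive potassium channels, and both were too scarce to test. ABCC8 had 2, 3 and 10 counts in shACSL4 libraries, against 0, 2 and 0 counts in shControl libraries. ABCC9 had 1, 2 and 1 counts in shACSL4 libraries, against 0, 0 and 5 counts in shControl libraries.

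The lipid transporters of the ABCA subfamily contained the largest fold changes. ABCA13, the longest protein of the subfamily (chromosome 7, 48171458 to 48647496, plus strand), had 11, 8.32 and 12.8 CPM in shACSL4 libraries, against 45.3, 28.9 and 44.5 CPM in shControl libraries. The highest shACSL4 library stayed below the lowest shControl library, and the gene fell to 0.27 times the shControl level (log2 fold change -1.89, SE 0.17, edgeR adjusted p = 1.9e-07). ABCA2, a transporter of endosomes and lysosomes linked to sphingolipid handling (chromosome 9, 137007227 to 137028922, minus strand), had 264, 256 and 238 CPM in shACSL4, against 508, 442 and 509 CPM in shControl. It fell to 0.52 times the shControl level (log2 fold change -0.94, SE 0.09, edgeR adjusted p = 3.9e-07), from a far higher abundance than ABCA13.

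ABCA5, a member found in lysosomes and late endosomes, had the largest rise of the members tested, at a low level. Its counts were 54, 66 and 50 in shACSL4 libraries, against 15, 22 and 15 in shControl libraries, or 3.46, 3.76 and 3.16 CPM against 0.892, 1.38 and 1.01 CPM. The groups did not overlap (3.16-fold higher, log2 fold change 1.66, SE 0.29, edgeR adjusted p = 0.00018). On the log2(FPKM + 1) scale, where low genes are compressed, limma gave 0.22. ABCA5 sits on chromosome 17 in a row of related genes that were nearly silent. ABCA6 had 2, 1 and 0 counts in shACSL4 and 0, 1 and 0 in shControl. ABCA9 had 2 counts in 1 shControl library, ABCA10 had 2 counts in 1 shACSL4 library, and ABCA8 had none. ABCA10 shares 318 exonic bases with ABCA5.

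ABCA7, a phospholipid exporter known from Alzheimer disease genetics, had 27, 30.9 and 29 CPM in shACSL4, against 20.1, 20.5 and 21.5 CPM in shControl. The groups did not overlap (log2 fold change 0.49, SE 0.10, edgeR adjusted p = 0.0011). ABCA1, which loads cholesterol and phospholipid onto apolipoprotein A-I, had 18.6, 14.4 and 14.2 CPM in shACSL4 and 24.7, 16.3 and 26.2 CPM in shControl. The groups overlapped, since shControl replicate 2 was close to the shACSL4 libraries, and the fall of 0.51 on the log2 scale passed narrowly (SE 0.16, edgeR adjusted p = 0.016). Without shACSL4 replicate 2 or 3 it was -0.45 and -0.44, and without shControl replicate 1 or 3 it was -0.44 and -0.40, all 4 with edgeR adjusted p between 0.0607 and 0.0772. Over all 17 alternatives the adjusted p of ABCA1 ran from 0.00046 to 0.0858. ABCA12, the lipid transporter of the skin barrier, was at 0.25 (edgeR adjusted p = 0.36), and ABCA4, the retinoid transporter of photoreceptors, at 0.38 (edgeR adjusted p = 0.55).

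ABCA3, which fills the lamellar bodies of lung surfactant cells, was below the count filter, with 21, 23 and 8 counts in shACSL4 libraries against 1, 3 and 4 in shControl libraries. The groups did not overlap. Tested without the filter it was at 2.58 on the log2 scale (SE 0.63, edgeR adjusted p = 0.00041), and the authors' deposited table gives it 2.62 with an adjusted p of 0.0074. The pseudogene ABCA17P overlaps it on the opposite strand without sharing an exonic base.

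**Figure D3:**
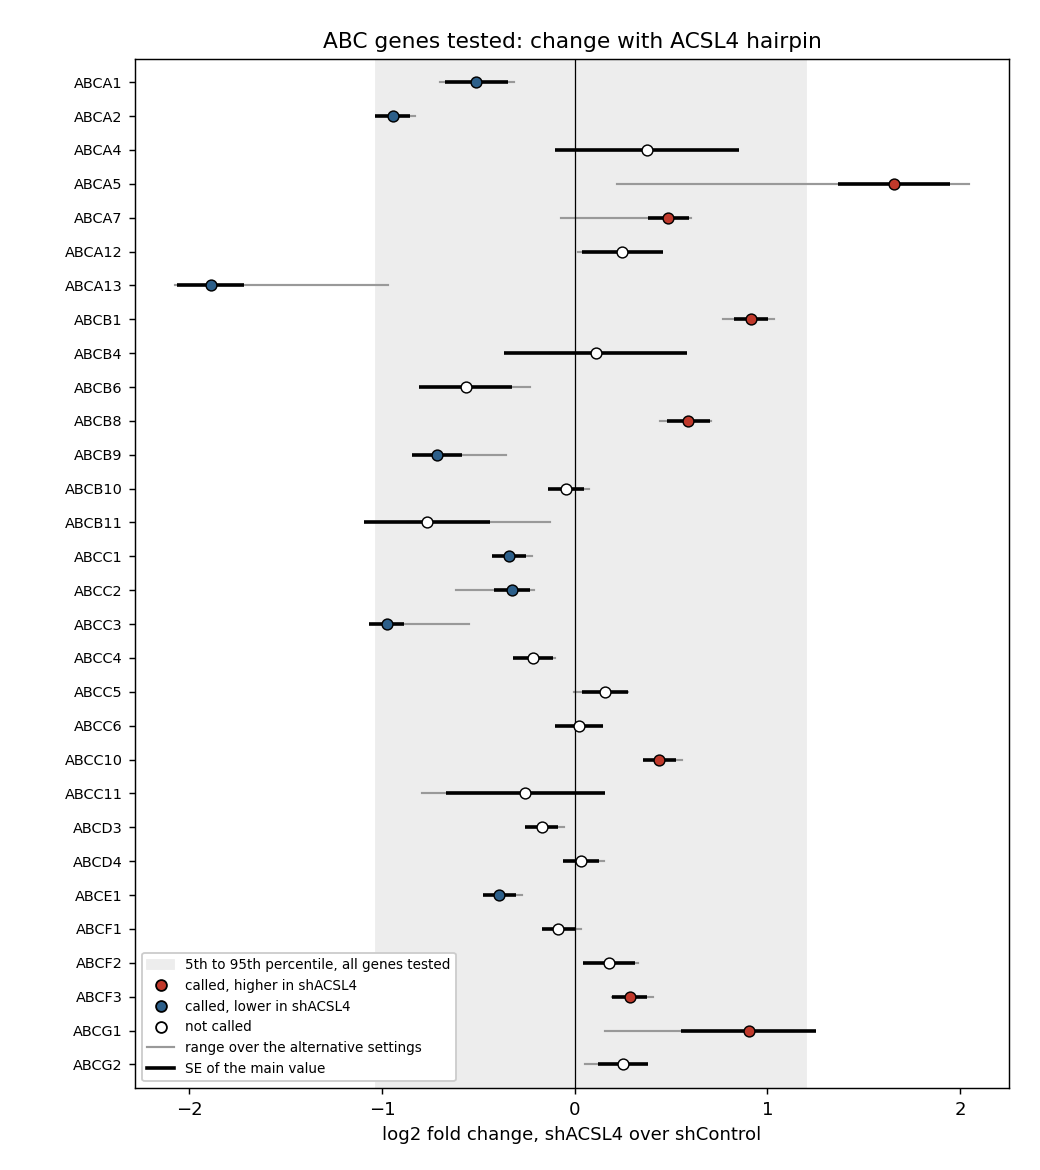
Log2 fold change of 30 of the 32 ABC genes tested, shACSL4 over shControl, ordered by subfamily. Black bars are SE, grey lines the range over the alternative settings, and the shaded band the 5th to 95th percentile of all genes tested (-1.03 to 1.2). ABCA13 lies below that band and ABCA5 above it, and the grey lines of ABCA5, ABCA13 and ABCG1 reach toward 0 because the log2(FPKM + 1) scale shrinks low genes.

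The annotated start regions of 3 of the called members differ in base composition. RefSeq promoters (GRCh38.p14, 250 bases before to 50 after a start) were found for 35 of the 45 members, at 53 starts. They are shown for ABCA2, ABCA13 and ABCB1, chosen after their values were seen as members with large changes in abundant or well measured transcripts. Capitals mark the motifs searched on both strands, which were the GC box GGGCGG, the inverted or direct box CCAAT, the core promoter box TATAAA, the antioxidant response core TGACNNNGC and the hypoxia response core ACGTG. ABCA2 and ABCB1 have a pair of starts each, with the downstream one shown first. Sequences run 5′ to 3′ on the strand of the gene.
ABCA2 first start region: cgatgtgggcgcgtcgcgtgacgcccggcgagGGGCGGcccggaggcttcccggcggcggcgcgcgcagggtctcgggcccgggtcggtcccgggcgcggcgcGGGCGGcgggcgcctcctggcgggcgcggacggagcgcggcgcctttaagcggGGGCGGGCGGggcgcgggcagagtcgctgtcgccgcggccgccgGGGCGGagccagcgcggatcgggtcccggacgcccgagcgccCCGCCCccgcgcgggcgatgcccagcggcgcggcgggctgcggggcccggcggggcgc
ABCA2 upstream start region: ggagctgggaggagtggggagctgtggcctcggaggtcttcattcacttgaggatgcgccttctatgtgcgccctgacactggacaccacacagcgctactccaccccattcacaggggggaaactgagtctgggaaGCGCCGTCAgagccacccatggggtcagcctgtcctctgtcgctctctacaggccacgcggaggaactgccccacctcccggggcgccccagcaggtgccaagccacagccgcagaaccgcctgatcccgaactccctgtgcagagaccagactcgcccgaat
ABCA13 start region: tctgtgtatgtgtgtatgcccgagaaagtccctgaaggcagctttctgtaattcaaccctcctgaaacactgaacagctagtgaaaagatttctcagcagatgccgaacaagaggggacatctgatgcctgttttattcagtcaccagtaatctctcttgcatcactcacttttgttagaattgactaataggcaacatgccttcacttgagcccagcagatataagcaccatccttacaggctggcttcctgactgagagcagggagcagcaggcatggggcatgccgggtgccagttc
ABCB1 downstream start region: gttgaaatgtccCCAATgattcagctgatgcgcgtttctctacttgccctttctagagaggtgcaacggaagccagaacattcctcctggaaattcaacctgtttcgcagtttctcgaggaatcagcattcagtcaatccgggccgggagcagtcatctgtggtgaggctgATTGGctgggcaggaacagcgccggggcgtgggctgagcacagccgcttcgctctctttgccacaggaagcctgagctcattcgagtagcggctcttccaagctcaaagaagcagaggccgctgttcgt
ABCB1 upstream start region: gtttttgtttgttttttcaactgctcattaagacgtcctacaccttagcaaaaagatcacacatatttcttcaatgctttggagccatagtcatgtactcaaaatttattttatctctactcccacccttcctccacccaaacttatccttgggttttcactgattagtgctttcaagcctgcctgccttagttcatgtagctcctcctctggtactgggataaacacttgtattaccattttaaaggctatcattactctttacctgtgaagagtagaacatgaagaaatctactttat

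The first ABCA2 region shown, chr9:137028188-137028487 on the minus strand, is the downstream one of its pair. It holds 66 CpG and 6 GC boxes, with 1 pair of boxes overlapping. The upstream ABCA2 region, chr9:137028873-137029172 on the minus strand, holds 16 CpG and 1 antioxidant response core. The ABCA13 region, chr7:48171208-48171507 on the plus strand, has 3 CpG and none of these motifs. The downstream ABCB1 region, chr7:87600835-87601134 on the minus strand, has 16 CpG and 2 CCAAT motifs, and the far upstream one, chr7:87713246-87713545 on the minus strand, has 1 CpG and none. The median was 19 CpG over the 53 member promoters and 14 over all 35116 promoters. The GC box occurred in 47.2% of member promoters and 45% of all promoters. The CCAAT box was in 22.6% of member promoters and 34.6% of all, and the TATA box in 15.1% of member promoters and 11.5% of all. The antioxidant core was in 22.6% of member promoters and 13.3% of all, and the hypoxia core in 26.4% of member promoters and 21.4% of all. The antioxidant response core was found at 2 of the 6 matched members that rose (ABCA5 and ABCC10), 2 of the 6 that fell (ABCA2 and ABCB9) and 6 of the 13 that did not pass. A perfect DR4 element of the liver X receptors was in no member promoter and in 0.0199% of all promoters. A match describes letters in a window and says nothing of binding.

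The mitochondrial and lysosomal members of the ABCB subfamily moved separately. ABCB8, a transporter of the inner mitochondrial membrane, had 37.1, 41.0 and 36.0 CPM in shACSL4, against 26.1, 28.1 and 21.6 CPM in shControl. The groups did not overlap (log2 fold change 0.59, SE 0.11, edgeR adjusted p = 0.00033). ABCB10, a mitochondrial member tied to heme synthesis, was at -0.05 (edgeR adjusted p = 0.72). ABCB6, linked to porphyrins, had 2.44, 3.48 and 2.28 CPM in shACSL4 and 3.93, 3.77 and 4.51 CPM in shControl. Its groups did not overlap, and the log2 fold change of -0.57 had an edgeR adjusted p of 0.064, which was 0.0323 with -0.78 when shACSL4 replicate 2 was left out and ran from 0.0258 to 0.179 over the alternatives.

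ABCB9, which moves peptides into lysosomes and is a close relative of TAP1 and TAP2, had 9.94, 10.8 and 8.98 CPM in shACSL4, against 15.9, 16.9 and 16 CPM in shControl. The groups did not overlap (log2 fold change -0.72, SE 0.13, edgeR adjusted p = 0.00023). On the log2(FPKM + 1) scale limma gave -0.36. ABCB9 shares 1656 of its 13291 exonic bases with OGFOD2 and 1590 with ARL6IP4, both on the opposite strand. OGFOD2 had a mean of 49 counts and ARL6IP4 of 10.7, where ABCB9 had 210, and their log2 fold changes were -0.70 and -0.97. Whether strand was used in counting is not stated, so reads over the shared bases cannot be told apart. The bile pumps had low counts. ABCB11, the bile salt export pump, had 1.03, 1.31 and 1.14 CPM in shACSL4 and 1.78, 1.76 and 2.42 CPM in shControl (log2 fold change -0.77, SE 0.33, edgeR adjusted p = 0.063), and ABCB4, the phosphatidylcholine exporter of bile, had 8, 13 and 10 counts in shACSL4 and 15, 6 and 7 counts in shControl (edgeR adjusted p = 0.87).

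The ABCD members described here did not pass the test. ABCD3, the abundant peroxisomal protein PMP70, had 78.2, 71.8 and 66.2 CPM in shACSL4 and 82.6, 82.2 and 78.7 CPM in shControl (log2 fold change -0.17, edgeR adjusted p = 0.12). ABCD4, which works with lysosomal cobalamin, was at 0.03 (edgeR adjusted p = 0.80), and ABCD2 had no read.

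ABCE1, which splits ribosomes after termination, had 113, 111 and 103 CPM in shACSL4, against 139, 154 and 137 CPM in shControl. The groups did not overlap (log2 fold change -0.39, SE 0.09, edgeR adjusted p = 0.0012). It shares 276 exonic bases with OTUD4 on the opposite strand, whose log2 fold change was also -0.39. ABCF1, which acts with initiation factor eIF2 and had the second highest FPKM of the family, had 169, 169 and 154 CPM in shACSL4 and 179, 179 and 165 CPM in shControl. Its groups overlapped (log2 fold change -0.09, edgeR adjusted p = 0.43). ABCF2 was at 0.18 (edgeR adjusted p = 0.29). ABCF3 had 77.8, 80.3 and 77.4 CPM in shACSL4, against 69.1, 66.7 and 57.4 CPM in shControl, without overlap (log2 fold change 0.28, SE 0.09, edgeR adjusted p = 0.015). Its call was lost without shACSL4 replicate 2 (0.27, adjusted p = 0.0577) and without shControl replicate 3 (0.20, adjusted p = 0.103), and over the alternatives its edgeR, limma or DESeq2 adjusted p ran from 0.0012 to 0.363.

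The sterol exporters of the ABCG subfamily were scarce. ABCG1, which passes sterols to lipoproteins, had 29, 31 and 29 counts in shACSL4 libraries, against 11, 20 and 15 in shControl libraries. In CPM that was 1.86, 1.77 and 1.83 in shACSL4 and 0.654, 1.26 and 1.01 in shControl, so the groups did not overlap (log2 fold change 0.90, SE 0.35, edgeR adjusted p = 0.042). The call was lost in 9 of 16 alternatives, among them the omission of any library other than shControl replicate 2, where the log2 fold change was 0.67 to 0.93 with an edgeR adjusted p of 0.0867 to 0.177, and the fit with the replicate number as a block (adjusted p = 0.0563). ABCG5 and ABCG8, which pair to export plant sterols and cholesterol, were below the filter. ABCG5 had 7, 8 and 19 counts in shACSL4 libraries, against 6, 12 and 6 counts in shControl libraries. ABCG8 had 2, 9 and 6 counts in shACSL4 libraries, against 12, 9 and 2 counts in shControl libraries, and the 2 genes share 137 exonic bases on opposite strands. ABCG4 had 5 counts in 1 shACSL4 library and none elsewhere.

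To see whether a member moved with its surroundings, each log2 fold change was set beside the median of the 50 nearest tested genes on its chromosome. For ABCB1, ABCA2 and ABCA13 the neighbours lay at 0.14, -0.01 and -0.06, far from the members' own values. The genes around ABCC3 were lower in shACSL4, with a median of -0.43, and relative to them ABCC3 stood at -0.55 and stayed past the threshold (edgeR adjusted p = 0.00011). Around ABCA5 the neighbours were at -0.39 while the gene rose. Around ABCC2 they were at 0.29, against which its log2 difference was -0.62 (edgeR adjusted p = 5.5e-05). ABCA7 lay among genes that were higher in shACSL4, with a median of 0.56, and relative to them its log2 difference was -0.071 (edgeR adjusted p = 0.614), where its adjusted p ran down to 0.00034 over the alternatives. ABCA7 was the only called member with a change of direction in any of the 17 alternatives, and 8 of the 16 called members (ABCA2, ABCA5, ABCA13, ABCB1, ABCB8, ABCB9, ABCC3 and ABCC10) were called in all of those that could test them.

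**Figure D4:**
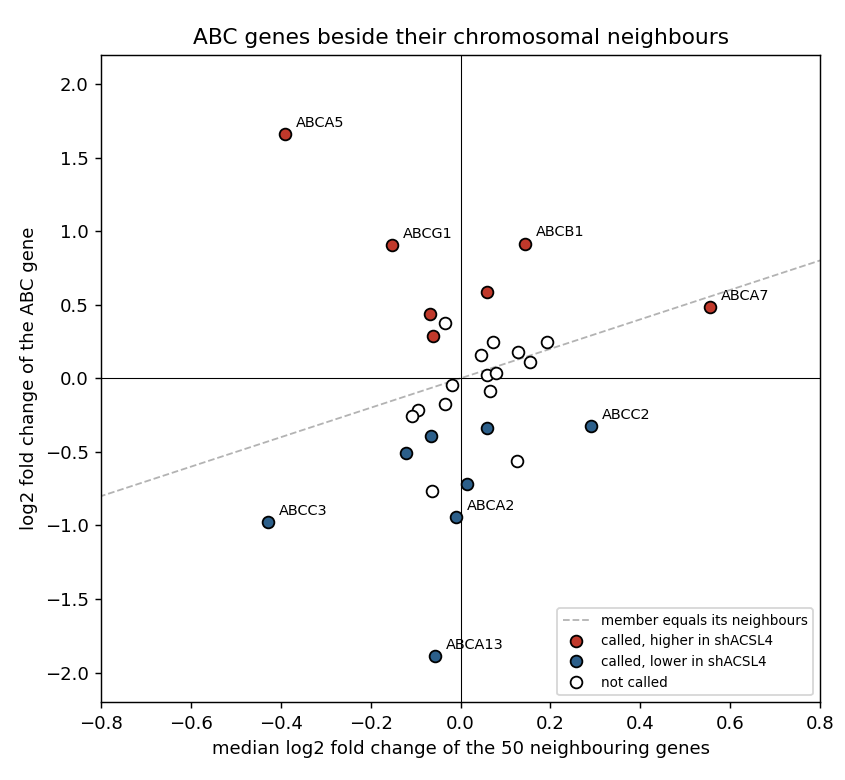
Log2 fold change of 30 of the 32 ABC genes tested (shACSL4 over shControl) against the median log2 fold change of its 50 neighbouring tested genes. The dashed line marks equality. ABCA7 lies near the line at 0.56 on the horizontal axis, while ABCB1, ABCA2 and ABCA13 lie far from it at horizontal values between -0.06 and 0.14.

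Members of the superfamily under other symbols did not pass the test. CFTR (ABCC7), the chloride channel of the apical membrane, had 315, 251 and 283 CPM in shACSL4 and 277, 231 and 268 CPM in shControl, with overlapping groups (log2 fold change 0.13, SE 0.10, edgeR adjusted p = 0.31). TAP1 (ABCB2) had 154, 147 and 139 CPM in shACSL4 and 172, 166 and 167 CPM in shControl (log2 fold change -0.19, SE 0.08, edgeR adjusted p = 0.063). The TAP1 groups did not overlap, and it passed with DESeq2, with limma on log2(FPKM + 1) and without shControl replicate 2 (-0.21, edgeR adjusted p = 0.0436), with adjusted p from 0.0308 to 0.752 over the alternatives. TAP2 (ABCB3) had 49.1, 50.2 and 47.9 CPM in shACSL4 and 46.4, 41.7 and 45.1 CPM in shControl, also without overlap. Its log2 fold change was 0.14 (edgeR adjusted p = 0.19). It passed in 2 of 17 alternatives, with edgeR, limma or DESeq2 adjusted p from 0.0167 to 0.884. The 11 genes that work with TAP in loading peptides onto MHC class I were lower in 9 cases and higher in none, with a median log2 fold change of -0.59, where 23.1% of all genes tested were lower and 24% higher. TAPBP (tapasin) averaged 227 ± 6.56 CPM in shACSL4 and 437 ± 16.8 CPM in shControl (log2 fold change -0.95, SE 0.08, edgeR adjusted p = 1.5e-07). The peptide trimming enzyme ERAP1 and the tapasin relative TAPBPL both had a log2 fold change of -0.73, with edgeR adjusted p of 9.7e-06 and 1.2e-05. The summed immune markers were lower in shACSL4 as well (6.04 to 8.73 CPM in shACSL4 and 18.8 to 30.5 CPM in shControl), and their part in this list was not tested.

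Of 21 tested regulators of ABC genes, 7 were higher and 6 lower, with a median log2 fold change of 0.03, or 61.9% called against 47.2% of all genes tested. NR1H4, the bile acid receptor FXR that drives ABCB11 in liver, had 10, 0 and 6 counts in shACSL4 libraries, against 111, 91 and 104 in shControl libraries. The groups were far apart (log2 fold change -4.26, SE 0.43, edgeR adjusted p = 6.7e-07), and the fitted value ran from -1.34 on the log2(FPKM + 1) scale to -5.09 over the alternatives. NR0B2, a nuclear receptor induced by FXR in liver, had 20, 11 and 22 counts in shACSL4 and 2, 9 and 3 in shControl (log2 fold change 1.86, SE 0.55, edgeR adjusted p = 0.011). Its call was lost without shACSL4 replicate 3, shControl replicate 1 or shControl replicate 3, at 1.66, 1.47 and 1.66 and edgeR adjusted p of 0.0501 to 0.0578. NR1H3, the liver X receptor that drives ABCA1 and ABCG1, averaged 30.3 ± 2.74 CPM in shACSL4 and 46.4 ± 4.99 CPM in shControl (log2 fold change -0.61, SE 0.10, edgeR adjusted p = 0.00014). Its relative NR1H2 was at 0.03 (edgeR adjusted p = 0.77).

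NR1I2, the xenobiotic receptor PXR that induces ABCB1, fell while ABCB1 rose, and a link between these changes was not tested. NR1I2 averaged 29.8 ± 0.430 CPM in shACSL4 and 43.1 ± 4.29 CPM in shControl (log2 fold change -0.53, SE 0.10, edgeR adjusted p = 0.00028). NFE2L2, the oxidative stress factor NRF2 that induces ABCC genes, averaged 132 ± 2.87 CPM in shACSL4 and 113 ± 10.2 CPM in shControl (log2 fold change 0.23, edgeR adjusted p = 0.042). That call was lost in 10 of 17 alternatives, among them without shACSL4 replicate 1 or 2 (both 0.22) and without shControl replicate 1 or 3 (both 0.18), with edgeR adjusted p of 0.116 to 0.189 there. NR5A2, a nuclear receptor of bile acid and steroid genes, was at 0.71 (SE 0.15, edgeR adjusted p = 0.00071).

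**Figure D5:**
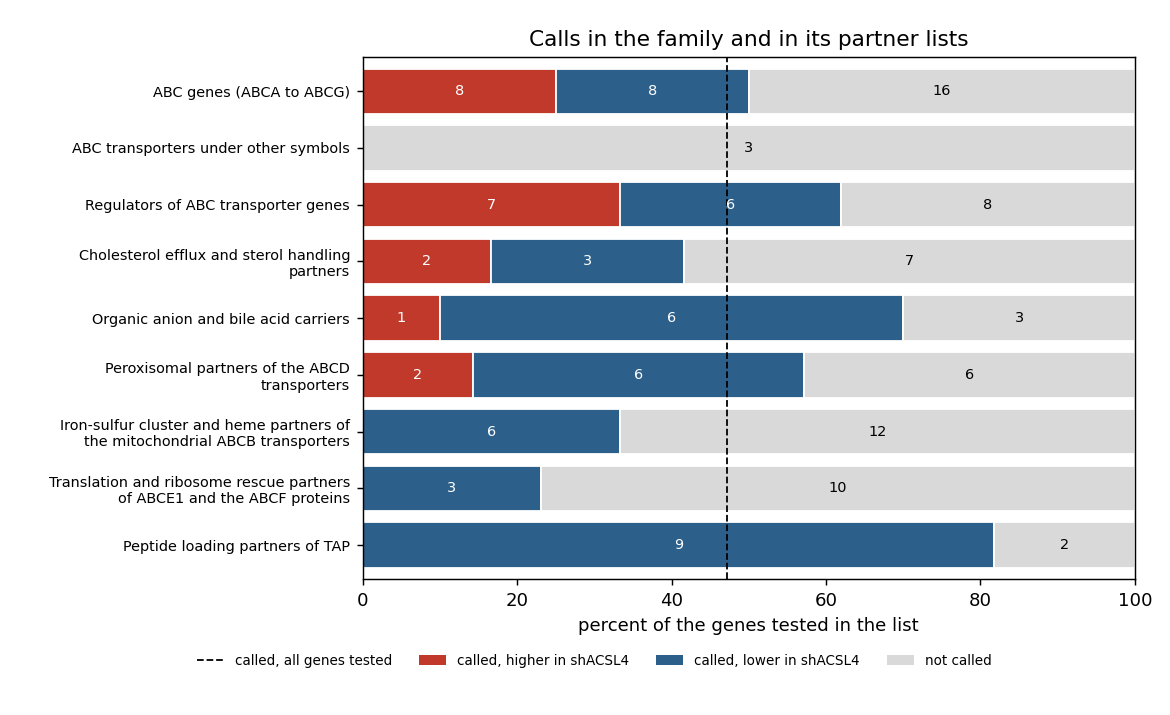
Percent of tested genes called higher, called lower or not called in shACSL4 against shControl, for the ABC family and for the partner lists with at least 3 genes tested. Numbers in the bars are gene counts and the dashed line marks the 47.2% of all genes tested that were called. The TAP peptide loading list has 9 of 11 genes lower and none higher, and the 3 ABC genes under other symbols have no call.

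Of 10 tested carriers and partners in the transport of organic anions, bile acids and other solutes, 1 was higher and 6 were lower, with a median log2 fold change of -0.46. Of all genes tested, 24% were higher and 23.1% lower, and 47.2% were called in all, with a median of 0.01, which are the background for each list below. SLC22A18, an organic cation carrier, averaged 112 ± 7.48 CPM in shACSL4 and 205 ± 16.3 CPM in shControl (log2 fold change -0.87, edgeR adjusted p = 8.9e-07). The toxin exporter SLC47A1 had a log2 fold change of -3.09 at 0.241 ± 0.0872 CPM in shACSL4 and 2.15 ± 0.214 CPM in shControl (edgeR adjusted p = 1.7e-05; -0.40 on the log2(FPKM + 1) scale), and the anion importer SLCO2B1 rose by 0.65 (edgeR adjusted p = 8.7e-05). Of 12 tested genes of cholesterol efflux and sterol handling, 2 were higher and 3 lower, or 41.7% called against 47.2% of all genes. LIPA, the lysosomal acid lipase, was at 0.79, while OSBPL1A, an oxysterol-binding protein, was at -0.83 and SCARB1, the HDL receptor, at -0.50, with edgeR adjusted p of at most 0.00014. Relative to their neighbouring genes, LIPA was at 0.40 and OSBPL1A at -0.41, and both stayed past the threshold (edgeR adjusted p of 0.0033 and 0.0022).

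Of 14 peroxisomal partners of the ABCD genes, 2 were higher and 6 lower, or 57.1% called against 47.2% of all genes. SLC25A17, a peroxisomal cofactor carrier, and PEX19, a chaperone of peroxisomal membrane proteins, were at -0.70 and -0.63. Of 18 tested iron-sulfur and heme genes, none was higher and 6 were lower, with a median log2 fold change of -0.18. The share lower was 33.3%, against 23.1% of all genes, while 24% of all genes were higher. Calls in either direction were 33.3% in this list and 47.2% over all genes. The lower ones included the heme enzymes CPOX (-0.77), ALAS1 (-0.69) and FECH (-0.52). Of 13 translation and ribosome rescue genes, none was higher and 3 were lower, and those 23.1% equal the share of all genes that were lower. Calls in either direction were 23.1% in this list and 47.2% over all genes. The rescue factor PELO was at -0.86 (18.7 ± 0.517 CPM in shACSL4 and 33.9 ± 1.2 CPM in shControl) and GCN1 and EIF2AK4, which act in the response to amino acid starvation, at -0.46 and -0.44. The call of EIF2AK4 was lost against a fold of 1.2 (edgeR adjusted p = 0.0502), the highest of its adjusted p over the alternatives, which began at 9.55e-05. KCNJ11, a pore subunit that pairs with ABCC8, averaged 7.61 ± 0.370 CPM in shACSL4 and 5.18 ± 0.743 CPM in shControl (log2 fold change 0.55, edgeR adjusted p = 0.015). The KCNJ11 call was lost in 3 of 17 alternatives, among them without shControl replicate 3, where it was at 0.46 with an edgeR adjusted p of 0.0678. KCNJ8, which pairs with ABCC9, had 2, 4 and 1 counts in shACSL4 and none in shControl.

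The authors' deposited table, with its own adjusted p-values, called 7 members higher and 8 lower at the same threshold. Its calls matched those given here for 30 of the 32 members tested, and it did not call ABCG1.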

How the data were processed

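The members and gene lists were chosen with earlier results of these data known. Per the labels' protocols, ribosomal RNA was removed from total RNA and fragments were built into libraries by an NEB method; CASAVA, HISAT2 and GRCh38 (hg38) are named, without versions, in the submitters' processing notes. For counting, the tool and the strand setting are not stated in the labels. The authors deposited 1 table with raw counts per gene, FPKM per library, a group mean signal of scaled counts (not used here), their log2 fold changes and their p-values, per the file headers. Its control columns carry the prefix NC, the only group beside shACSL4, and were taken as shControl by number.

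Genes passing filterByExpr on the counts were tested, libraries were scaled by TMM and groups were compared with the edgeR 4.0.16 quasi-likelihood test in R 4.3.3, with Benjamini-Hochberg adjustment over 15694 genes and a threshold of 0.05. The procedure was also run on simulated data with far fewer changed genes than were called here. That run cannot test the scaling of these libraries. SE is the log2 fold change divided by the root of its F statistic. Library totals were 14740383 to 17620630 counts, and counting error is largest for members with few counts. Alternatives used DESeq2 1.42.0, limma 3.58.1 (log2(FPKM + 1) and voom), other scalings and filters, a fold threshold of 1.2, a replicate block, and the omission of each library. For promoters, RefSeq starts were matched by symbol. Members called at 1 log2 unit or above 20 CPM and the 3 highest by FPKM are given with their values in every library, and from each list the 3 called genes with the largest changes. Most other members are given by library too. Some genes enter the counts and sums but are not reported here by name or drawn.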

Additional observations from a re-analysis of the deposited data

How the results depend on the processing

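Over 17 alternatives, 15 of the 16 called members kept their direction and 8 were called in every one that could test them. Against a fold threshold of 1.2, 5 members were higher and 4 lower, and over all genes 2441 were higher and 2209 lower. Leaving out 1 library gave 5 to 9 members higher and 7 to 9 lower; the count of 5 came without shACSL4 replicate 2, where ABCF3 and ABCG1 were among those that missed the threshold. Other settings gave 6 to 10 members higher and 6 to 9 lower. Relative to neighbouring genes, the log2 difference of ABCA7 was -0.071 and that of NR1H2 -0.37 (edgeR adjusted p = 0.0021, and up to 0.995 over the alternatives); that setting subtracts the median of nearby genes. On the log2(FPKM + 1) scale, which shrinks low genes, ABCA13 was at -0.97, NR0B2 at 0.62, NR5A2 at 0.43 and KCNJ11 at 0.36, all still past the threshold. With the replicate number as a block, 7 members were higher and 8 lower, and ABCG1 was the member that lost its call. Same-numbered libraries had correlations of 0.0623, -0.00128 and 0.00753 in their deviations from the group means. The highest correlation was between shACSL4 replicate 3 and shControl replicate 2 (0.0703). With 3 libraries per group, these values cannot decide whether the numbers pair the libraries. Depth limits the 13 untested members, for which a level of 0.171 to 0.202 CPM is only 3 counts.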
